A study of Mus musculus with 23 samples.

Results

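The epiblast at embryonic days 6.5 and 7.5 (E6.5 and E7.5) was described from 10 wild-type whole-genome bisulfite libraries, chosen by their tissue, stage and genotype labels out of 23 samples in the series. The study asked how imprinted and other loci are marked in reciprocal hybrids of the mouse strains C57BL6/Babr and CAST/EiJ (CAST), in the epiblast and in the extra-embryonic ectoderm (ExE). In the cross written B6/CAST the mother was C57BL6/Babr and the father CAST, and in CAST/B6 the parents were exchanged. At E6.5 there were 3 libraries of each cross, and at E7.5 there were 2 of each. All embryos carried the wild-type genotype, had no treatment and were hybrid, so each library held 1 genome of each strain. One of the B6/CAST libraries at E6.5 could be placed in its group but not tied to a replicate number, and is called unnumbered. The epiblast was separated from the ExE by hand, so a minority of other cells was not excluded by sorting. The E6.5 libraries were made from the input of micrococcal nuclease-digested chromatin of pooled epiblasts, were shallow and had shorter reads, whereas each E7.5 library came from a single embryo and was deep. Developmental stage, depth, pooling and chromatin digestion therefore cannot be told apart in any comparison of E6.5 with E7.5.

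The epiblast is the part of the implanted embryo from which all tissues of the fetus arise. Its genome loses most DNA methylation before implantation and is remethylated by the enzymes DNMT3A and DNMT3B around implantation, after which most CpGs are highly methylated and CpG-rich promoters mostly stay free of the mark. Between E6.5 and E7.5 the primitive streak forms and epiblast cells enter the mesoderm and definitive endoderm lineages. Promoters of germline genes are a known group of CpG-rich promoters that gain methylation in the epiblast, and germline differentially methylated regions (gDMRs) of imprinted genes keep methylation on only 1 parental copy.

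The promoters below are shown because their windows held largely the same CpGs at both stages and because they span the levels seen, from almost unmethylated to almost fully methylated. The sequences are from RefSeq (GRCm38.p6), run 5′ to 3′ on the strand of the gene from 250 bases before to 50 bases after its start, and have each CpG in capitals. Among the 32851 promoters of this length in that table the median was 7 CpGs. Dazl encodes an RNA-binding protein of germ cells (chr17:50293571-50293870, minus strand, 28 CpGs, more than in 85.8% of promoters), and Tdrd1 encodes a Tudor-domain protein of the piRNA pathway (chr19:56825959-56826258, plus strand, 20 CpGs). Hhex is a homeobox gene of the anterior endoderm (chr19:37434591-37434890, plus strand, 37 CpGs), and Hoxd8 is a gene of the Hoxd cluster (chr2:74704365-74704664, plus strand, 6 CpGs). Msgn1 encodes a transcription factor of presomitic mesoderm (chr12:11208899-11209198, minus strand, 4 CpGs), and Cer1 encodes a secreted antagonist of Nodal, BMP and Wnt signals (chr4:82885102-82885401, minus strand, 6 CpGs).
Dazl: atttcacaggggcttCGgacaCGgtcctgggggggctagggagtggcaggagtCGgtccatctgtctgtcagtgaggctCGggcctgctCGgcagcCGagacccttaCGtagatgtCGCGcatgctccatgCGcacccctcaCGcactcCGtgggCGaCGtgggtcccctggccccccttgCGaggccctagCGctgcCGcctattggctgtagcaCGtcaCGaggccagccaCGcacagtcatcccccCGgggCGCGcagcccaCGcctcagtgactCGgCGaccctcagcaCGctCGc
Tdrd1: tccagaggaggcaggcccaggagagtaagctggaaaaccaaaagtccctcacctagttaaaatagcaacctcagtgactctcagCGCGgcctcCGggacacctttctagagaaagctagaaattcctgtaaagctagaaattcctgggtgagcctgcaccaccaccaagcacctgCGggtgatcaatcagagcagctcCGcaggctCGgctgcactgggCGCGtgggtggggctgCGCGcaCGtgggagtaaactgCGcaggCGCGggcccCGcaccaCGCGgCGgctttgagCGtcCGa
Hoxd8: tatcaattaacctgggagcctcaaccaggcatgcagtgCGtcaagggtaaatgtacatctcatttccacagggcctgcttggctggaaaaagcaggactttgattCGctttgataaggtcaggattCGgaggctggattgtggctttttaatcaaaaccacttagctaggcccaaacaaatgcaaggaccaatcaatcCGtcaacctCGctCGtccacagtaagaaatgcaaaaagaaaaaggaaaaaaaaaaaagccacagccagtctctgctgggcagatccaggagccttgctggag
Hhex: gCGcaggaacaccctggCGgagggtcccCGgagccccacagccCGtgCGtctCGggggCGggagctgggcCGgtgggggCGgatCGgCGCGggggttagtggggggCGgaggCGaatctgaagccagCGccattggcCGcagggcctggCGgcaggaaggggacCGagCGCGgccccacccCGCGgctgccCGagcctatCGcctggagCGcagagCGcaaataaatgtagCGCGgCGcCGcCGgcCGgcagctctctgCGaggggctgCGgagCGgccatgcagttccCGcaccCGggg
Msgn1: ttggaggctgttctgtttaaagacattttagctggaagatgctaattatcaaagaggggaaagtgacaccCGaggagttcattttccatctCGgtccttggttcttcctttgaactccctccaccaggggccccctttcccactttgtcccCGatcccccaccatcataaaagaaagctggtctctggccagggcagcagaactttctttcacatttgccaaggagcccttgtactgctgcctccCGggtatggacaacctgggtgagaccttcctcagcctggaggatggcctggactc
Cer1: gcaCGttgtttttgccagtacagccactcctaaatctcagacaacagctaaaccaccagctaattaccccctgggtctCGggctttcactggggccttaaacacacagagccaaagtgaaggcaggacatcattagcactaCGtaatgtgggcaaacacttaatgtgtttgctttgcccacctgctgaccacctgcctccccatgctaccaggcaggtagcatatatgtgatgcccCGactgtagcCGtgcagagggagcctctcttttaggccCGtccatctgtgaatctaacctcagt

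Mean methylation over the genome was similar at both stages and differed more between the crosses at E6.5 than between the stages. Over 328185 autosomal windows with a value in all 10 libraries, the E6.5 libraries of B6/CAST averaged 65.6%, 71.4% and 75.3%, and those of CAST/B6 averaged 79.8%, 79.3% and 80.5%. The E7.5 libraries averaged 75.1% and 72.4% in B6/CAST and 74.7% and 76.3% in CAST/B6. The E7.5 values thus lay within the range of the E6.5 values. The stage difference averaged over crosses came to -0.723 points, with p = 0.81 in an exact permutation of stage within each cross (two-sided, 100 arrangements).

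In B6/CAST the mean was 70.8% ± 4.88 (SD, n = 3) at E6.5 and 73.7% ± 1.92 (SD, n = 2) at E7.5, a rise of 2.91 points. In CAST/B6 it was 79.8% ± 0.611 (SD, n = 3) at E6.5 and 75.5% ± 1.15 (SD, n = 2) at E7.5, a change of -4.36 points. The crosses moved in opposite directions, but the difference between their stage changes, -7.28 points, did not pass an exact permutation test (p = 0.183). At E6.5 CAST/B6 lay 9.05 points above B6/CAST, and the groups did not overlap (exact permutation test, p = 0.1, the smallest that 3 libraries against 3 can give). At E7.5 the crosses lay 1.77 points apart (exact permutation test, p = 0.667, smallest possible 0.333). For single windows, 0 of 328185 had a stage difference that differed between crosses by limma, and 12509 had an unadjusted p under 0.05.

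The 8 wild-type ExE libraries, 2 for each cross and stage, had the same opposite pattern of crosses. Over 296863 windows with values in all 18 libraries, the ExE stage difference was 6.17 points in B6/CAST and -6.06 points in CAST/B6 (exact permutation test of the difference between crosses, p = 0.222). The epiblast mean exceeded the ExE mean by 17.01 points at E6.5 and 16.1 points at E7.5. No epiblast library averaged below 72.8% at E7.5, where the ExE libraries lay between 57.4% and 60.5%. The ExE libraries of E6.5 ran from 52.6% to 66.2%, and the epiblast libraries of that stage from 66.2% to 80.9%.

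**Figure D1:**
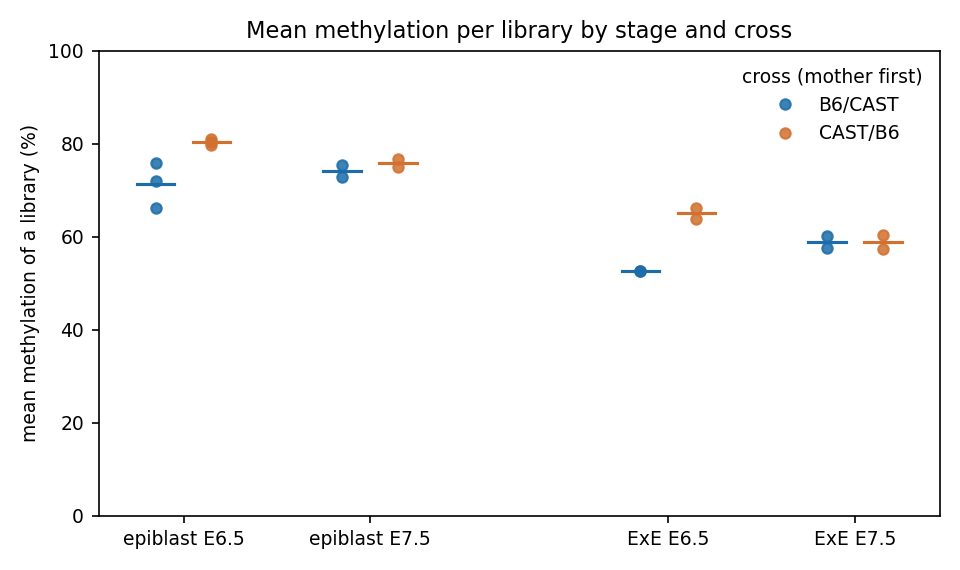
Mean percent methylation of each wild-type epiblast and ExE library (points) over the windows with a value in all 18 libraries, by stage and cross. The epiblast libraries lie between 66.2% and 80.9% at E6.5 and between 72.8% and 76.7% at E7.5, with the CAST/B6 libraries above the B6/CAST libraries at E6.5.

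Libraries also varied more among themselves at E6.5. The median SD of a window over the libraries of a group was 8.88 points in B6/CAST and 5.61 points in CAST/B6 at E6.5, against 3.25 and 3.13 points at E7.5. Between 0.334% and 10.2% of windows had no value in an E6.5 library, against 0.0195% to 0.0973% in an E7.5 library. The files give percentages without read counts, so the depth behind a single value is unknown and no counting interval can be given.

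The windows of the stages did not hold the same CpGs, and the calls between stages moved with this. Each deposited table divides the genome into its own windows, set by the authors to a fixed number of CpG positions, and the paired windows held a median of 51 CpGs of the reference genome at E7.5 and 61 at E6.5, so E7.5 windows were paired with the E6.5 window that holds their midpoint, and 3764 of 384346 had no partner. The paired windows had a median length of 5153 bp at E7.5 and 6363 bp at E6.5. Of the 328185 windows, 16844 (5.13%) differed between stages at an adjusted p under 0.05 by limma with cross as a covariate, 4631 higher and 12213 lower at E7.5. After each library was centred on its own mean, so that a window is read against the overall shift, 20215 windows (6.16%) passed, 6760 higher and 13455 lower. The excess of lower calls was gone where paired windows had to overlap over at least 0.5 of each, with 3461 higher and 3152 lower in percent, and 4568 and 4411 after centring.

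The share of windows called fell with the share of CpGs that the paired windows had in common. Among 1005 windows sharing under 20% of CpGs with their partner, 43.1% were called, and among 95599 windows sharing 40 to 60% the share was 9.12%. Among 10666 windows sharing 90% or more, 0.459% were called. The SD of the stage difference over windows fell in the same order, from 31.9 points to 5.03 points. Windows called lower at E7.5 shared a median of 48.1% of CpGs, had a median length of 2587 bp against 4866 bp for the partner, and held a median of 63.5% of their CpGs in their densest 500 bp. They were thus often short CpG-rich windows set beside a longer E6.5 window, and 25.3% of them held the 5′ end of a protein-coding gene. Windows called higher shared a median of 59.0% of CpGs, and those not called shared 67.8%.

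**Figure D2:**
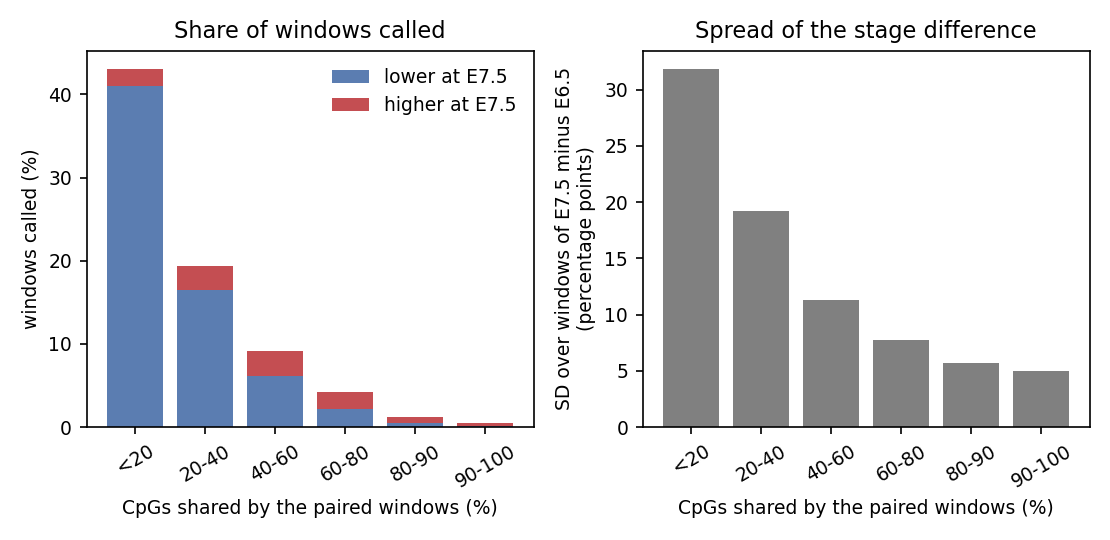
Percent of paired windows called between E6.5 and E7.5, and SD of the stage difference in percentage points, against the percent of CpGs that the paired windows shared. The called share runs from 43.1% where under 20% of CpGs were shared to 0.459% where 90% or more were shared.

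Calls were frequent among promoter windows, most of them lower at E7.5. Of 15383 windows holding the 5′ end of a protein-coding gene, 3776 (24.5%) passed, 372 higher and 3404 lower at E7.5. The 10 promoter windows with the largest gain shared 20% to 66.1% of CpGs with their partner, and rose by 49.5 to 66.1 points. Among the genes starting there were Mindy3, Ttll3, 1700017D01Rik, Zdhhc21, Klhdc8b, Tacc1, Cacnb2, Psmb10 and Cracr2b. The 10 with the largest loss shared 4.76% to 36.4% of CpGs, had differences of -80.5 to -77.1 points, and held the starts of Srrt, Lpcat1, Actr6, Ints10, Cpeb3, Ogfod3, Zfp369, 1810022K09Rik, Mrps25 and Rspo3. Of these 20 windows 18 shared under 50% of CpGs with their partner, the others being those of Cacnb2 (66.1%) and Zdhhc21 (51.7%). The share was also under 50% for the 6 largest gains over all windows (near Hps3, Trp53rka, Atxn1l, Tmem33, Mindy3 and Aggf1, 30.2% to 47.5% of CpGs shared) and the 6 largest losses (near Hltf, Itfg1, Srrt, Arrdc2, 4931414P19Rik and Metap1, 10.2% to 21.4% shared).

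In the windows that held largely the same CpGs, the mean level was alike at both stages and few windows were called. These CpG-matched windows, in which the paired windows shared at least 80% of the CpGs of the larger one, numbered 70225. Their mean was 72.3% at both stages, the median absolute difference was 3.07 points after centring and the 95th percentile was 11.5 points. With p-values adjusted over these windows alone, limma called 65 (0.0926%), 45 higher and 20 lower at E7.5, and 5186 (7.38%) had an unadjusted p under 0.05. The balance of gains and losses was not stable, with 37 higher and 44 lower without CAST/B6 replicate 3 of E6.5, 74 and 157 with replicate number as a block, and 353 and 40 after quantile normalization. The 45 gains went from a mean of 38.8% to 64.9%, with a median gain of 27.0 points. The 20 losses went from 61.4% to 31.3%, with a median difference of -27.8 points.

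Most of the called windows lay near gene starts. Of the 45 gains 31 lay within 5 kb of the 5′ end of a protein-coding gene, and of the 20 losses 16 did, against 18.2% of all matched windows. Leaving out any one of the E7.5 libraries left 0 calls by limma (3324 to 4210 at an unadjusted p under 0.05), between 36 and 98 were made without any one of the E6.5 libraries, and 1 was made without centring. At a limit of 90% of CpGs shared 0 of 10666 windows passed by limma, with 592 at an unadjusted p under 0.05.

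**Figure D3:**
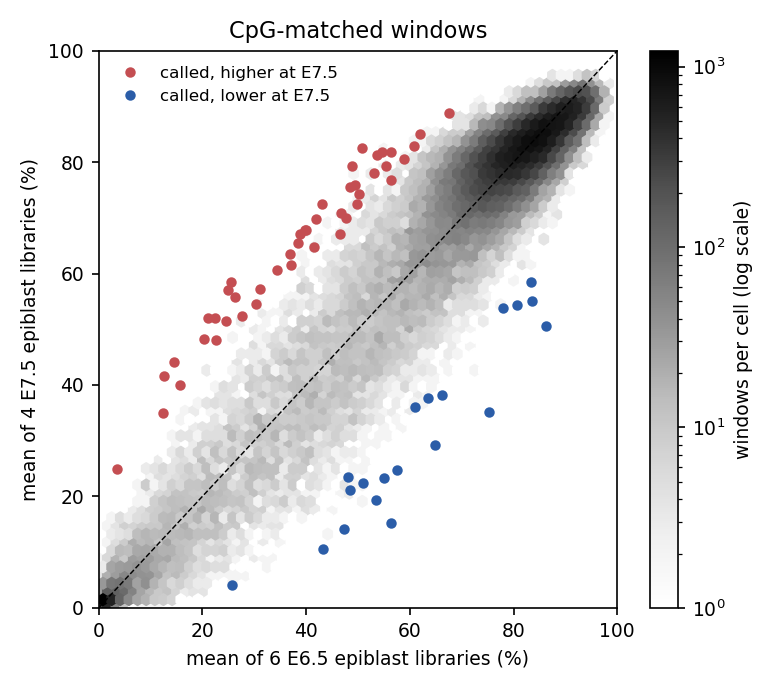
Mean percent methylation at E6.5 and E7.5 of the CpG-matched windows, with the windows called by limma marked. The 45 called gains run from a mean of 38.8% to 64.9% and the 20 called losses from 61.4% to 31.3%, while the median absolute difference of all 70225 windows was 3.07 points.

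Of 3996 matched promoter windows 10 (0.25%) were called, 6 higher and 4 lower at E7.5, and 514 had an unadjusted p under 0.05. Endod1, which encodes an endonuclease domain protein, had the largest gain (window chr9:14381178-14385216). It stood at 5.9% to 40.5% at E6.5 (median 25.2%) and at 70%, 57.4%, 56.0% and 50.4% at E7.5. Every E7.5 library lay above every E6.5 library, by 33.6 points on average after centring (SE 5.33, limma adjusted p = 0.0329, 95% interval 22.2 to 45.0). Differences of single windows and promoters are limma estimates on centred values unless marked otherwise. They need not equal the gap between the percentages printed beside them. Tmem196, a transmembrane protein gene (window chr12:119937650-119945870), stood at 30.7% to 50% at E6.5 (median 37.9%) and at 76.5%, 61.1%, 67.3% and 66.7% at E7.5. The gain was 28.9 points (SE 4.21, limma adjusted p = 0.0281), again without overlap. Nek11, which encodes a kinase of the NIMA-related family (window chr9:105395491-105397509), was the lowest of these promoters at E6.5, with 2.5% to 21.1% (median 13.2%). It was even among the E7.5 libraries, at 34.4%, 34.8%, 35.1% and 35.8%, a gain of 23.4 points (SE 3.42, limma adjusted p = 0.0281).

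The promoter windows of Gpc6, a glypican gene, and of D430041D05Rik gained 27.8 and 24.9 points (limma adjusted p = 0.0336 and 0.0318). The losses were at Tmem94, Klhl12, Sipa1 and Cadps. Klhl12, which encodes a substrate adaptor of a CUL3 ubiquitin ligase (window chr1:134453079-134455581), went from 37.0% to 62.5% at E6.5 (median 47.5%) to 13.7%, 12.7%, 15.4% and 14.5%. The difference was -32.4 points (SE 4.56, limma adjusted p = 0.0281), with all E7.5 libraries below all E6.5 libraries. Tmem94 differed by -39.3 points (limma adjusted p = 0.0383) from an E6.5 range of 61.2% to 100.0%. Sipa1, which encodes a GTPase-activating protein for Rap, and Cadps, which encodes a protein of dense-core vesicle release, differed by -31.0 and -24.0 points. Each of these promoter windows was also called with all windows fitted together.

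Outside promoters the largest matched gains were 30.4 to 32.8 points. The nearest gene starts were those of 1700025C18Rik (19789 bp away), Xpnpep1 (115340 bp), Cdk2ap1 (6117 bp), Jarid2 (135576 bp) and Camta1 (2811 bp). Jarid2 encodes a component of Polycomb repressive complex 2, and its window lay within the gene (chr13:44860480-44869621) at 31.5% to 70.3% at E6.5 (median 44.8%) and at 77.8%, 78.2%, 83.4% and 77.6% at E7.5. The largest losses lay near Pllp, Sec63, Gpr146 and Lamc1, at -40.4 to -33.6 points. Sec63, which encodes a protein of the endoplasmic reticulum translocon, had the lowest adjusted p of all matched windows. Its window, within the gene (chr10:42762546-42768222), stood at 80.7% to 90% at E6.5 (median 87.1%) and at 55.3%, 51.4%, 47.8% and 47.8% at E7.5. The difference was -34.9 points (SE 3.65, limma adjusted p = 0.00849).

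The ExE differed in the same direction at most of these windows, although few passed there. Of the 43 called gains with ExE values, 42 were also higher in the ExE at E7.5, by a mean of 13.8 points, and all 20 called losses were also lower there, by a mean of 18.8 points. In the ExE alone 0 of the gains and 5 of the losses were called by limma, beside 11 of all 64408 matched windows with ExE values (0.0171%). Endod1 and Nek11 differed by 28.5 and 22.7 points in the ExE, and Sipa1 and Cadps differed by -30.4 and -32.5 points. Epiblast and ExE libraries of a stage were made in the same way, and stage and library type cannot be told apart in either tissue. The gain near Cdk2ap1, 31.7 points in the epiblast against 2.50 points in the ExE, was among the least matched by the ExE, yet 0 of 64408 matched windows passed the limma test of a stage difference that differed between tissues (lowest adjusted p 0.720, 3018 at an unadjusted p under 0.05).

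Developmental gene promoters were read in these matched windows wherever one was available, since only there do both stages measure largely the same CpGs. The counts below stand beside 24.5% called of all promoter windows, mostly lower at E7.5, and 0.25% called of all matched promoter windows, so 0 calls among a few matched members is near the background. As a second reading that pairs no windows, each promoter was also averaged over whichever windows of each table lay within 1 kb of its start (own-window difference). Each library was then centred on its mean over these promoters, not over all windows as in the paired reading. The readings thus have different zero points, and a small difference can change sign between them. By this second reading 3590 of 19589 promoters (18.3%) were called, 1763 higher and 1827 lower at E7.5. The windows near a start need not hold the same CpGs at both stages either. Among the Hox genes, which pattern the body axis, 31 of 39 had a promoter window, 1 was called lower (Hoxb1, -27.4 points, own-window difference -10.8 points, 52.7% of CpGs shared, against 24.5% of all promoter windows called) and 6 had a matched window, of which 0 were called and 0 had an unadjusted p under 0.05. Their medians were 3.12% at E6.5 and 3.51% at E7.5. Hoxd8, whose sequence is printed above, ran from 0.0% to 5.9% at E6.5 (median 2.9%) and stood at 0.9%, 2.5%, 5.5% and 4.6% at E7.5. The stages overlapped (difference 1.5 points, 95% interval -6.72 to 9.71). The highest and lowest differences of the matched Hox promoters, at Hoxd8 and Hoxc12, were 1.5 and -1.79 points, against a median of 0.231 points over all matched promoters. Of the unmatched ones, Hoxb6 and Hoxb4 were the highest (5.9 and 5.1 points) and Hoxb3 the lowest after Hoxb1 (-13.3 points), and none of these 3 was called.

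Neurectoderm genes were low as well. Of 20 members 15 had a window and 0 were called by limma, against 24.5% of all promoter windows, with 0 of the 7 matched ones at an unadjusted p under 0.05. The matched median was 4.69% at E6.5 and 2.39% at E7.5. The lowest differences of the list were at En1 and Tfap2a (-7.3 and -6.4 points) and the highest at Pax2 and Hesx1 (1.5 and 0.4 points). Pax6 and Six3, transcription factors of eye and forebrain, stood at no more than 3.2% in any E7.5 library, whereas Hesx1, a repressor of the anterior neural plate, was highly methylated, from 58.3% to 84.7% at E6.5 and at 64.3%, 73.6%, 74.3% and 72.8% at E7.5.

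Of the 38 genes of primitive streak and mesoderm 31 had a window, 1 was called higher (Mesp1, 23.7 points, own-window difference 17.7 points, 74.1% of CpGs shared) and 1 lower (Mesp2, -54.3 points, own-window difference -36.9 points, 42.3% shared). Mesp1 and Mesp2 are neighbouring genes for bHLH factors of early mesoderm. Of the 13 matched promoters 0 were called and 2 had an unadjusted p under 0.05, and their median was 5.87% at E6.5 and 2.95% at E7.5. The promoter window of T (brachyury), which is required for mesoderm formation, stood at 0.0% to 11.8% at E6.5 and at 1.2%, 2.0%, 0.7% and 0.0% at E7.5, so this promoter was nearly free of methylation at both stages.

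Msgn1 and Cer1, the highest and lowest of the matched members, were methylated at both stages. The promoter window of Msgn1 ran from 47.4% to 79.3% at E6.5 (median 67.2%) and stood at 75.3%, 78.1%, 86.9% and 76.6% at E7.5 (difference 13.6 points, 95% interval 2.0 to 25.2, limma adjusted p = 0.569). That of Cer1 ran from 67.3% to 96.9% (median 84.3%) and stood at 73.1%, 69.9%, 63.6% and 70.4% (difference -13.2 points, 95% interval -24.3 to -2.18, limma adjusted p = 0.551). In both genes the stages overlapped, and neither promoter has more than 6 CpGs in the 300 bases printed above.

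Of 12 definitive endoderm genes 8 had a window and 6 a matched one. Gata4, a zinc-finger factor of endoderm and heart, was the 1 called member. Its window (84.2% of CpGs shared) ran from 51.9% to 68.8% at E6.5 (median 61.1%) and stood at 35.1%, 40.8%, 42.7% and 47.4% at E7.5. All E7.5 libraries lay below all E6.5 libraries, by 18.5 points on average (difference -18.5, 95% interval -27.6 to -9.51). The limma adjusted p was 0.0141 over all windows and 0.142 over matched windows, so the call is not kept there, the own-window difference was -13.4 points, and the ExE differed by -1.58 points. Hhex was almost free of methylation, from 0.0% to 4.4% at E6.5 and at 1.0%, 1.1%, 2.3% and 2.8% at E7.5. Its window covers 234 of the 300 bases printed above, so not all 37 CpGs of that sequence need lie in it. A window within the same gene, 3472 bp from the start (chr19:37436876-37439689, 81.0% of CpGs shared, named here after its values were seen), was 1 of the 20 called matched losses. It ran from 47.1% to 73.3% at E6.5 (median 56.4%) and stood at 32.3%, 27.8%, 12.1% and 27.0% at E7.5, without overlap (difference -32.1 points, SE 4.45, limma adjusted p = 0.0281 over matched windows), and the ExE differed by -14.8 points. Foxa2 and Cldn6 differed by 1.7 and 2.9 points, and neither was called.

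Among the lists, germline genes had the highest median difference in matched promoters, 8.71 points. Of 30 members 27 had a window, 1 was called higher (Ddx4) and 3 lower. The lower ones, Dmrt1 (-44.6 points), Tdrd9 (-36.6 points) and Smc1b (-31.3 points), shared 43.4% to 47.5% of CpGs, and their own-window differences were -18.3, -20.9 and 5.84 points. Of the 27 paired differences 16 were above 0 (median 3.02 points), and of the 27 own-window differences 24 were (median 7.89 points), against 52.9% above 0 and a median of 0.577 points over all promoters. Other lists leaned the same way by the own-window reading, with 24 of 31 Hox promoters above 0 (median 1.34 points), 23 of 31 of primitive streak and mesoderm (1.33 points) and 11 of 16 of naive pluripotency (3.41 points). By the paired reading those 3 lists had 15, 12 and 8 promoters above 0, in the same order. By the own-window reading 5 germline promoters were called higher (Ddx4, Hormad1, Hormad2, Sycp3 and Rpl10l) and 2 lower (Dmrt1 and Tdrd9), beside 18.3% of all promoters. Of the 5 matched promoters 4 were higher at E7.5, with medians of 39.8% and 58.5%, but 0 were called over matched windows and 2 had an unadjusted p under 0.05. In the ExE the matched germline promoters stood at 31.0% at E6.5 and 41.5% at E7.5. Ddx4, which encodes the germ-cell RNA helicase VASA, ran from 26.6% to 52.4% at E6.5 (median 38.3%) and stood at 60.1%, 67.8%, 56.6% and 49.5% at E7.5. The stages overlapped in 1 E7.5 library, and the gain was 19.4 points (95% interval 9.52 to 29.3, limma adjusted p = 0.0187 over all windows and 0.165 over matched windows).

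Dazl ran from 64.0% to 96.4% at E6.5 (median 77.3%) and stood at 89.4%, 87.7%, 86.7% and 94.4% at E7.5, a difference of 10.9 points (95% interval 2.29 to 19.5, limma adjusted p = 0.498). Its 28 CpGs near the start were thus in a highly methylated window at both stages, and its own-window difference was -0.594 points. Tdrd1 ran from 22.2% to 48.6% and stood at 47.6%, 38.9%, 35.9% and 46.0% (difference 8.71 points, 95% interval -1.0 to 18.4). Tdrd6, of the same protein family, stood lower, from 5.1% to 14.1% at E6.5 and at 5.3%, 14.4%, 8.5% and 7.7% at E7.5.

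Pluripotency gene promoters ranged from almost unmethylated to highly methylated, and 0 of the matched ones were called in the paired windows. Of 20 naive pluripotency genes 16 had a window, and the 3 called, all lower (Tfcp2l1, -40.5 points, Tdh, -39.1 points, and Esrrb, -21.0 points), shared 44.4% to 51.9% of CpGs and had own-window differences of -21.5, -13.5 and -9.55 points. By the own-window reading 3 were called higher (Dppa4, 17.1 points, Nlrp9b, 11.5 points, and Klf2, 9.55 points) and 2 lower (Tfcp2l1 and Tdh), beside 18.3% of all promoters. The highest differences, at Nr5a2 and Nlrp9b, were 10.1 and 9.6 points and did not pass. Tbx3 and Klf2 stood at no more than 2.5% in any E7.5 library. Dppa2, a gene expressed in pluripotent and germ cells, ran from 66.7% to 95.1% at E6.5 (median 82.6%) and stood at 87.9%, 87.1%, 86.6% and 88.1% at E7.5.

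Of 20 genes of the post-implantation epiblast 13 had a window, 1 was called higher (Sall4, 22.0 points) and 5 lower, with 40% to 70.4% of CpGs shared, beside 24.5% of all promoter windows called, 3404 of those 3776 lower. The lower ones were Utf1 (-36.8 points), Dnmt3a (-35.5 points), Cdh1 (-34.6 points), Pou3f1 (-33.5 points) and Pou5f1 (-22.2 points), which encodes the pluripotency factor OCT4. None of those 6 was matched. Their own-window differences were 4.72 points for Sall4, -1.41 for Utf1, -4.0 for Dnmt3a, -15.5 for Cdh1, -3.24 for Pou3f1 and 3.06 for Pou5f1, so the direction turned at Pou5f1, and of the 6 only Cdh1 was called by that reading. Near Pou3f1, which encodes a POU-domain factor, an intergenic window 5085 bp from the start (chr4:124660041-124663743, 86.3% of CpGs shared, named after its values were seen) was 1 of the 45 called matched gains. It ran from 20% to 42.9% at E6.5 (median 25.3%) and stood at 53.6%, 58.0%, 51.6% and 46.5% at E7.5 (difference 25.5 points, SE 4.14, limma adjusted p = 0.0356 over matched windows), and the ExE differed by 18.3 points. Of the 3 matched members Etv4, an ETS factor, was lower at E7.5 without overlap, from 12.2% to 22.7% at E6.5 (median 13.4%) to 4.9%, 5.0%, 3.1% and 4.7% (difference -11.0 points, 95% interval -18.5 to -3.45, limma adjusted p = 0.382). The ExE differed there by -10.5 points. Otx2, a homeobox gene of epiblast and anterior neural tissue, ran from 0.0% to 10.5% and stood at 1.1%, 10.6%, 8.4% and 10.5%.

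Genes of the neighbouring tissues were read in the same way. Of 18 trophoblast genes 11 had a window, 2 were called lower (Ascl2, -33.7 points, own-window difference -1.93 points, and Esrrb, also a naive pluripotency gene) and 6 were matched, with medians of 5.65% and 3.11%, and 0 called. These promoters were also low in the ExE (6.88% and 5.78%), so they do not tell the tissues apart. Of 17 visceral endoderm genes 17 had a window, 2 were called lower (Rbp4, -59.8 points, own-window difference -19.7 points, 27.6% of CpGs shared, and Lgals2, -14.8 points, own-window difference -7.33 points, 62.7% shared) and 7 were matched, with medians of 60.5% and 61.3%, and 0 called. The part of cells from either tissue in the stage differences was not tested.

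**Figure D4:**
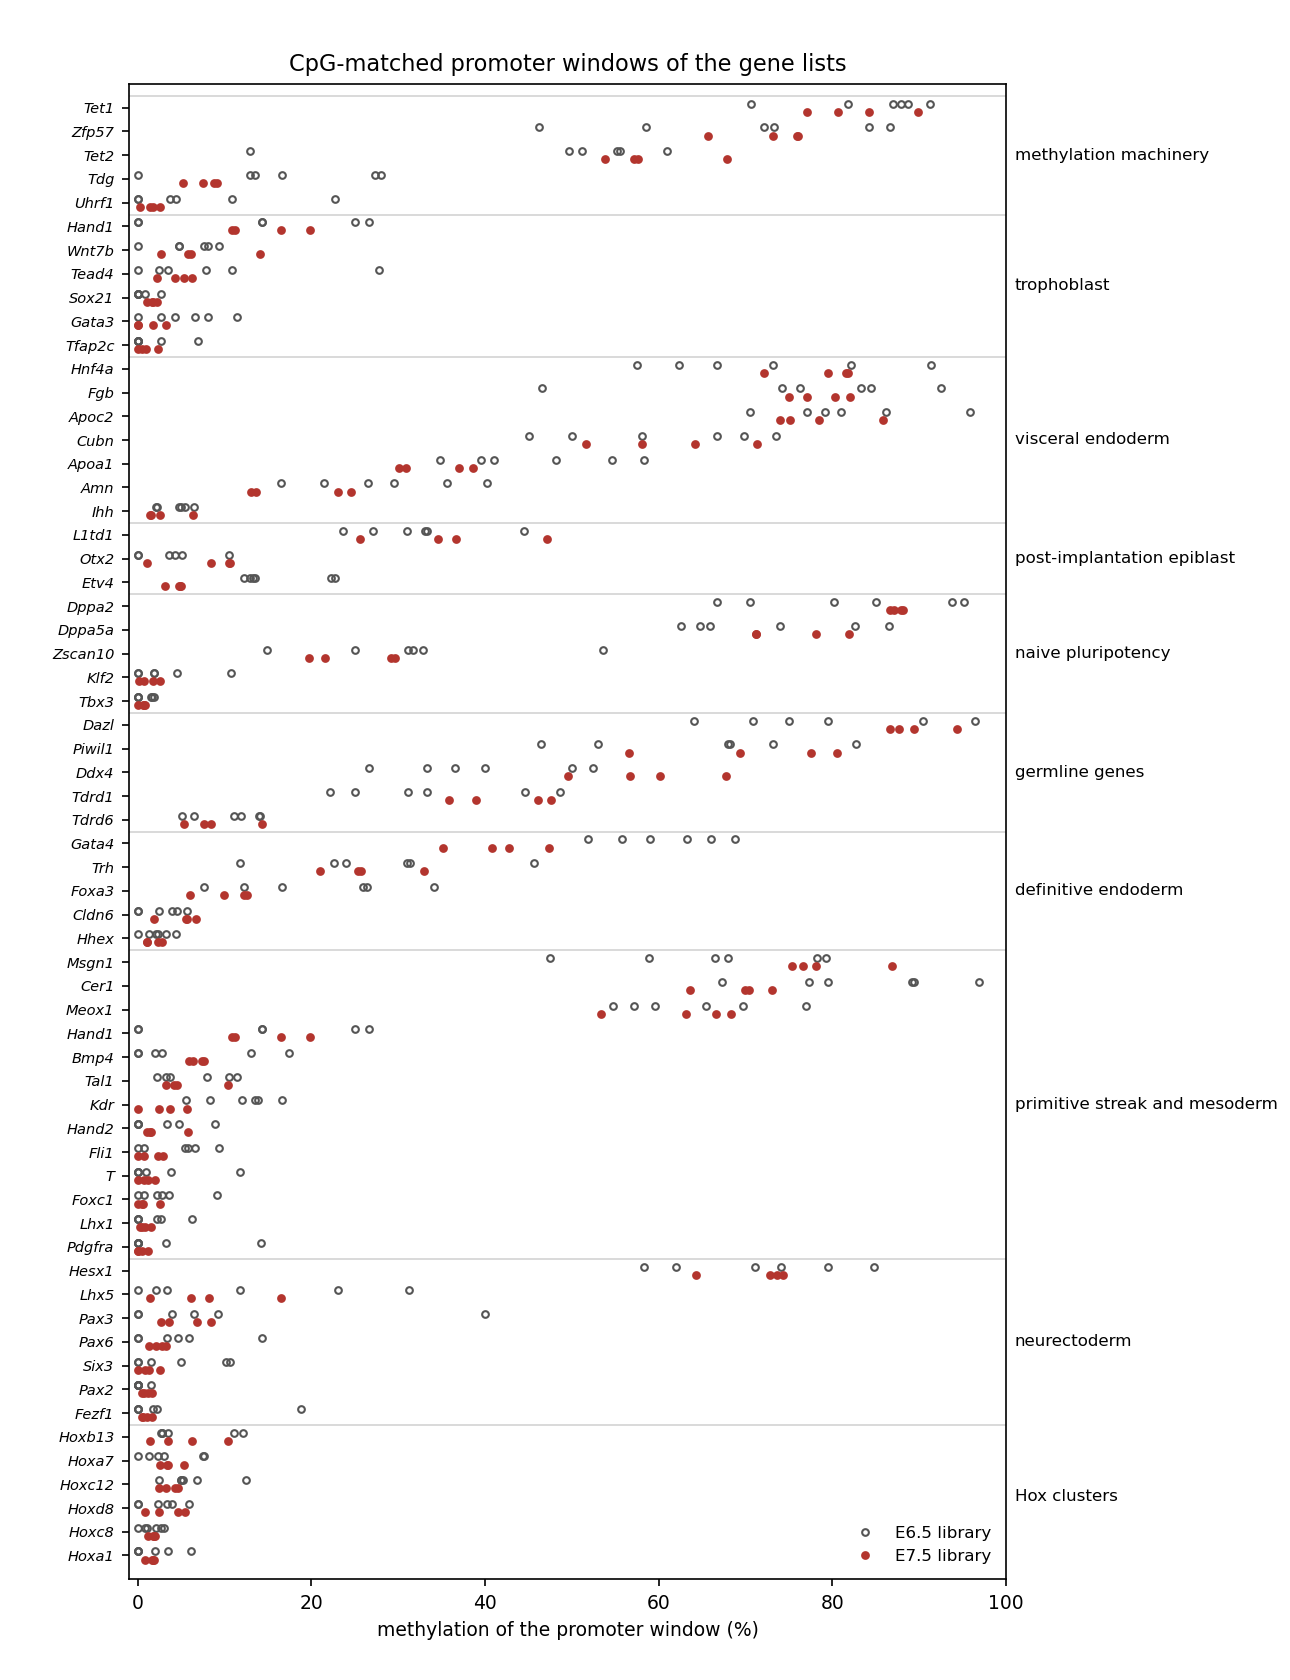
Percent methylation at E6.5 and E7.5 of the matched promoter windows of each gene list, with every epiblast library as a point and 1 endoderm gene not shown. Hox, neurectoderm and trophoblast promoters lie mostly near 0 at both stages, and of the germline promoters 4 of 5 are higher at E7.5, with 0 called over matched windows.

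Regions over imprinted gDMRs had lower means at E7.5 in nearly all cases. The regions were whole H3K4me3 peaks of the study that overlap a gDMR, so their means need not be those of the gDMR itself. Of the 16 used, 15 had a lower mean over the windows with their midpoint in the region, and the mean difference was -11.2 points in percent, without centring. Over all windows that overlap a region 16 were lower, and the mean difference was -7.51 points. Falls of similar size were seen elsewhere. All promoter windows went from a mean of 49.4% to 40.6%, and all paired windows of 1 to 2 kb differed by -10.6 points without centring. Averaged over regions, the E6.5 libraries ran from 62.7% to 74.9% (median 66.0%) and the E7.5 libraries from 53.6% to 57.2%, without overlap. At Peg10/Sgce, an imprinted pair expressed from the paternal copy, the values ran from 57.1% to 80.4% at E6.5 (median 69.1%) and stood at 45.4%, 46.4%, 50.9% and 47.7% at E7.5. At Inpp5f they ran from 62.3% to 93.7% (median 76.8%) and stood at 37.6%, 60%, 59.5% and 42.2%, the largest difference at -27.1 points. No other region was without overlap between stages by this rule. Among single matched windows, after centring, 1375 of 70225 were without overlap, and among matched promoter windows 164 of 3996. With all overlapping windows Peg10/Sgce still did not overlap (-17.7 points), whereas Inpp5f overlapped (72.6% to 68.8%, -3.76 points). The highest difference was at Slc38a4, 0.6 points (-1.95 points over all overlapping windows), from 65.2% to 81.2% (median 75.9%) to 75.2%, 73.9%, 77.1% and 73.0%. Near the median, Plagl1, which encodes a zinc-finger protein, differed by -10.8 points (-4.86 points over all overlapping windows) and Meg3, a paternally methylated region, by -10.6 points.

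The ExE was lower at E7.5 in 16 of 16 gDMR regions, with a median region at 60.6% at E6.5 and 49.8% at E7.5, and the windows over these regions again differed between tables. Of 74 paired windows in these regions 14 were called, all lower, and the median share of common CpGs was 70.2%. By comparison 6.16% of all paired windows were called, and 24.5% of all promoter windows, 3404 of those 3776 lower. In the 24 matched windows, which lay in 8 regions, 0 were called by limma, 18 were lower and 6 higher at E7.5, and the median difference was -5.54 points. The lowest lay at Kcnq1/Kcnq1ot1 (72.7% to 41.7%, -30.2 points, limma adjusted p = 0.161 over matched windows and 0.0159 over all windows) and the highest at Meg3 (32.8% to 41.5%, 9.43 points, limma adjusted p = 0.926 over matched windows). A window at Mest differed by -27.1 points (limma adjusted p = 0.105 over matched windows and 0.00711 over all windows), and in both it and the Kcnq1/Kcnq1ot1 window the stages did not overlap and a call was made when all windows were fitted together.

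Windows over the long terminal repeats (LTRs) of endogenous retroviruses bordering non-canonically imprinted genes were methylated in the epiblast at both stages, with 1 exception. Each value is a mean over whole windows, of 2706 to 5724 bp at E7.5, most of which lies outside the LTR. The level of the LTR itself was therefore not measured. In non-canonical imprinting the maternal copy is marked in the oocyte by H3K27me3 and not by DNA methylation. The RLTR11B element near Sfmbt2 (chr2:10364990-10365462), a Polycomb-related gene expressed from the paternal copy in trophoblast, had the lowest window value of the 8 LTRs at E6.5. Its window (chr2:10363671-10369394, intergenic, 3978 bp from the Sfmbt2 start, 84.7% of CpGs shared) stood at 34.8%, 31.2% and 30.8% in B6/CAST and at 49.2%, 40.8% and 53.4% in CAST/B6 at E6.5. At E7.5 it stood at 76.7% and 62.7% in B6/CAST and at 64.3% and 67.9% in CAST/B6. All E7.5 libraries lay above all E6.5 libraries in both crosses.

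After centring the gain at this RLTR11B window was 28.6 points (SE 4.28, 95% interval 19.4 to 37.7), with a limma adjusted p of 0.0310 over matched windows. It was 34.5 points in B6/CAST and 22.6 points in CAST/B6. The ExE libraries ran from 24.5% to 48.6% at E6.5 and from 32.7% to 42.7% at E7.5, a difference of -0.385 points, and this was the 1 called gain that was not higher in the ExE. The stage difference exceeded that of the ExE by 29.1 points (limma, unadjusted p = 0.000143, adjusted p = 0.822), so the difference between tissues did not pass over all matched windows.

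The other LTRs were higher at E6.5, and their averages overlapped between stages. The windows over the RLTR31B_Mm element averaged 68.1% at E6.5 and 79.9% at E7.5, weighted by their overlap with the element. Its 2 windows, both matched, differed by -5.71 and 15.9 points (limma adjusted p = 0.877 and 0.212 over matched windows, and 0.678 and 0.0339 over all windows), so the second was called over all windows and not over matched windows. That window ran from 50% to 74.2% at E6.5 (median 65.6%) and stood at 75.5%, 80.8%, 83.7% and 80.3% at E7.5, without overlap in percent but with overlap after centring. The remaining 6 differed by -4.21 points (RLTR20C) to 3.85 points (RLTR15 near Gab1) in percent without centring, and their E6.5 means lay between 79.2% and 86.7%.

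**Figure D5:**
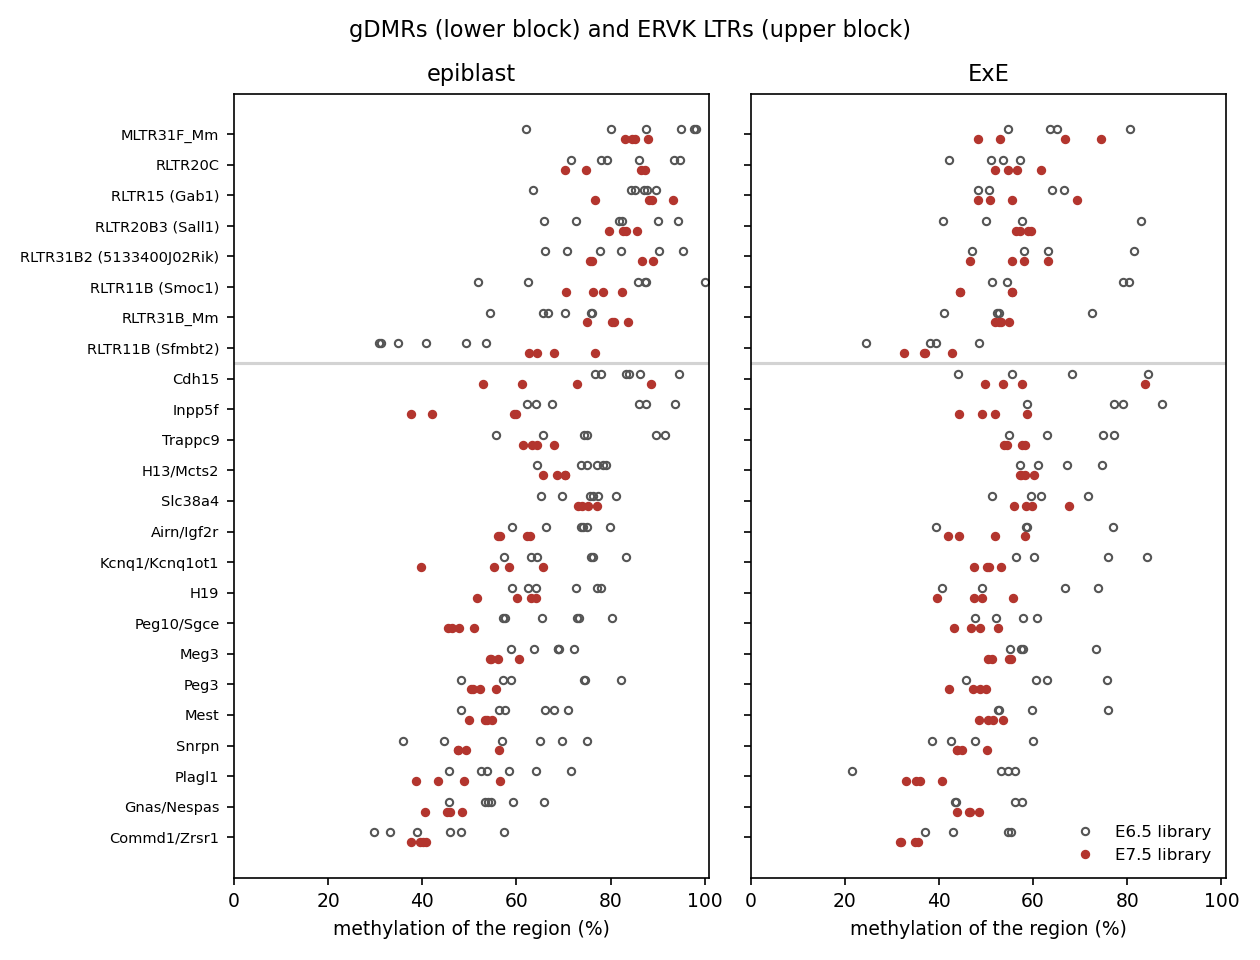
Percent methylation of the windows over each gDMR region and LTR in the epiblast and ExE libraries at E6.5 and E7.5 (points), on a scale of 0 to 100%. Of 16 gDMR regions 15 have a lower epiblast mean at E7.5. The epiblast libraries at the window over RLTR11B near Sfmbt2 lie between 30.8% and 53.4% at E6.5 and between 62.7% and 76.7% at E7.5.

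Few bins were called at the scale of domains, and 0 by limma without centring, whether filled from each table's windows (131 at an unadjusted p under 0.05) or from paired windows (1119 at that limit). In bins of 100 kb filled from the windows of each table separately, 7 of 23532 (0.0297%) were called, 4 higher and 3 lower, and the median absolute difference was 1.61 points. Of the 4 called higher 3 were filled by a single E7.5 window of 350786 bp on chromosome 10, and the lower bins held Cphx1, Duxbl1, Plac9a and Tmem254a (-23.3 points), Ache, Muc3a, Srrt and Ufsp1 (-21.0 points) and Drg1 and Sfi1 (-13.5 points). In bins of 1 Mb, 0 of 2391 were called by limma, with 290 at an unadjusted p under 0.05 and differences of -6.91 to 5.19 points. Bins made of paired windows gave 143 calls in 22776 (0.628%), 17 higher and 126 lower. The 5 highest, which include bins in Cadm2, Naaladl2 and Sdc2, rose by 12 to 13.8 points. The 5 lowest differed by -15.1 to -12.6 points and held Cyp4f18 with 3 zinc-finger genes, Drg1 and Sfi1, part of a histone gene cluster, Csgalnact1 and Ints10, and Cnot4 and Nup205. Filled from each table separately, the 5 highest differed by 5.01 to 9.65 points and 0 of them were called, and the 5 lowest differed by -6.60, -13.5, -8.49, -0.356 and -8.13 points in the order given, of which the bin of Drg1 and Sfi1 was called. With replicate number as a block 0 paired bins were called by limma (4239 at an unadjusted p under 0.05). With any 1 E7.5 library left out 2 to 4 paired bins were called, and without CAST/B6 replicate 1 or 2 of E6.5 it was 16 or 20.

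The stage difference differed between epiblast and ExE in 13 of 296863 paired windows (0.00438%), with the epiblast change below the ExE change in all 13. By limma 0 passed without centring (14407 at an unadjusted p under 0.05) and 0 with trend and robust variance (17950 at that limit). These windows shared 14.5% to 45.2% of CpGs with their partners.

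The share of windows under 20% methylation was 4.20% to 4.78% in the E6.5 libraries and 5.71% to 5.83% in the E7.5 libraries, a difference of 1.29 points (exact permutation test, p = 0.01, the smallest possible, adjusted p = 0.03). In matched windows that difference was 0.123 points (exact permutation test, adjusted p = 0.77). Windows of 1 to 2 kb differed by -9.92 points after centring (exact permutation test, adjusted p = 0.03), and by -0.694 points where they were matched (exact permutation test, adjusted p = 0.876). Windows of 8 to 16 kb rose by 2.67 points (exact permutation test, adjusted p = 0.048), and by 2.59 points where they were matched (exact permutation test, adjusted p = 0.09). Without centring they differed by 7.52 points in B6/CAST and -3.62 points in CAST/B6 (exact permutation test, adjusted p = 0.732). Short windows are rich in CpGs and long ones poor.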

How the data were processed

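Post-bisulfite adapter tagging (PBAT) libraries of wild-type epiblast were compared between E6.5 (n = 6) and E7.5 (n = 4). Per the submitters' processing notes, the authors trimmed the E6.5 reads with Trim Galore (0.4.4) and aligned them to GRCm38 with Bismark (0.20.0), and for E7.5 the notes name Bismark without a version. Versions in the study's methods differ from these. The authors deposited a percent methylation value for each window of 100 CpG positions counted on both strands, in 1 table per stage. No read counts accompany the percent values, so depth and a coverage minimum could not be used. Autosomes 1 to 19 were kept, windows were paired by midpoint, and windows with all 10 values were fitted with limma (3.58.1, R 4.3.3) with cross as a covariate, on library-centred percentages, with Benjamini-Hochberg adjustment and a threshold of 0.05. Summary values were tested by two-sided exact permutation of stage within cross. CpG-matched windows were defined after the data were seen. The scripts were tested on simulated data. Replicates are separate libraries, and nothing in the labels links equal numbers of different groups. Genes were named by size among called windows whose groups did not overlap (up to 10 promoter windows and 6 windows of any kind each way, the same in matched windows) and, per gene list, the extremes and called members, with some further members chosen after their values were seen. Loci of 1 chromosome and some single genes are not reported here. The members and lists were chosen with earlier results of these data known. Alternatives covered the normalization, pairing, fit and each library left out. Figures were drawn with matplotlib (3.10.9).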

Additional observations from a re-analysis of the deposited data

Results flagged for a closer look

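In 13 of 296863 paired windows the change from E6.5 to E7.5 differed between epiblast and ExE in the limma test of that difference itself. In all 13 the epiblast change lay below the ExE change, and the paired windows shared 14.5% to 45.2% of their CpGs. With limma 0 passed without centring and 0 with trend and robust variance (14407 and 17950 at an unadjusted p under 0.05). Of the 64408 matched windows with ExE values 0 passed the same limma test, with 3018 at an unadjusted p under 0.05.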

How the results depend on the processing

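Alternatives at the limit of 80% or 90% of CpGs shared, and those on matched windows and on bins of each table's own windows, were chosen after seeing the data. The overall stage difference of -0.723 points changed sign with the median over windows (0.390), weighting by length (0.638), an overlap of 0.5 of each window (0.263), unpaired 1 Mb bins (0.865) and a replicate block (0.601), and ran from -2.01 to 0.413 when single libraries were left out, above 0 without the unnumbered B6/CAST library (0.413). With limits of 10% and 90%, and with means of 5 neighbouring windows, the intermediate class differed by 11 and 1.83 points and the high class by -12.1 and -1.99 points, against -2.27 and 0.981 points with limits of 20% and 80% (exact permutation test, adjusted p = 0.91 for both). At 10% and 90% both passed, with signs reversed (adjusted p = 0.04). In matched windows the low class differed by 0.123 points and the length classes up to 16 kb by 0.141, -0.694, -0.285, 0.776 and 2.59 points. Without centring, the classes of 2 to 4, 4 to 8 and 8 to 16 kb differed by -2.42, 0.0751 and 1.95 points. The 16844 calls became 25572 with array weights, 10373 with the replicate block, 7388 with 1 value per E6.5 window, 6613 with the overlap limit, 1 in matched windows and 0 at 90% of CpGs shared. The 20215 calls after centring became 9794, 8979, 65 and 0 under the last 4 of these settings, and 8785 and 10061 within B6/CAST and CAST/B6 alone. The 65 matched calls became 1 without centring, 11 on the logit scale, 39 with trend and robust variance, 499 with array weights, 393 after quantile normalization, 231 with the replicate block, 0 at 90% and 0 within either cross, and 0 to 98 with single libraries left out. The 143 paired bins became 1 at 1 Mb, 669 with at least 10 windows, 1220 with array weights, 0 without centring, 0 with the replicate block, 2 to 237 with libraries left out, and 7 and 0 as unpaired bins of 100 kb and 1 Mb. The 7 unpaired bins became 0 without centring, 12 with array weights, 1 with the replicate block and 1 to 6 with libraries left out. The 13 windows by tissue became 0 without centring, 214 with array weights, 0 with trend and robust variance, 24 without the cross term and 0 in matched windows. Libraries of equal replicate number in E6.5 and E7.5 shared only the number: their deviations from the group means, over matched windows, correlated at -0.0715 to 0.0147, so the replicate block (libraries numbered 1 and 2) rests on no pairing. The cause of these changes was not tested. A coverage minimum could not be tried, since only percentages were deposited.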

Other observations

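Promoters of the DNA methylation machinery were read in the same way, beside 24.5% called of all promoter windows and 0.25% of all matched ones. Of 12 genes 9 had a window, 2 were called lower over all paired windows (Dnmt3a, -35.5 points, and Tet3, -17.4 points, sharing 51.0% and 75.5% of CpGs, with differences of -4.0 and -15.9 points where each table's own windows near the start were averaged) and 5 were matched, of which 0 were called by limma and 0 had an unadjusted p under 0.05. Tet1, which encodes an enzyme that oxidises methylcytosine, ran from 70.6% to 91.2% at E6.5 and stood at 80.6%, 77.0%, 89.8% and 84.2% at E7.5. Uhrf1, which encodes the factor that brings DNMT1 to replicated DNA, stood at no more than 2.6% in the E7.5 libraries.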
